A study of Drosophila melanogaster with 2 samples.

Results

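The 10 genes described here encode insulator and promoter architectural proteins of Drosophila melanogaster: BEAF-32, CTCF, Cp190, su(Hw), mod(mdg4), Chro, pita, ZIPIC, Dref and M1BP. They were chosen by name with earlier results of these data known, and all 10 were found among 13968 protein-coding genes on the chromosome arms. Chromatin immunoprecipitation sequencing had mapped cato, a basic helix-loop-helix factor related to atonal, in a transgenic line in which GFP was fused to its C-terminus. The material was whole embryos of both sexes collected from 0 to 16 h, so that many tissues were mixed, and there was 1 condition with 2 biological replicates, numbered 1 and 3 by the labels. No input library, untagged line or second condition was analysed here. Peaks were taken from the gene body or within 2 kb of it in 3 lists on the build dm6: the thresholded list of 2746 peaks kept by the authors on the irreproducible discovery rate (IDR) between replicates, and the lists of 30000 peaks of each replicate. The signal value of a peak is the authors' own, on an unstated scale, and is read only within its list, where rank 1 is the strongest peak. The authors' pooled list, used below for comparison, also holds 30000 peaks and is labelled as peaks and background for input to IDR. A peak of low rank in these lists of 30000 may be background rather than binding. Read depth is unknown.

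Architectural proteins hold chromatin in domains and loops, block enhancers from acting on the wrong promoter, and sit at the promoters of broadly expressed genes. BEAF-32, CTCF, su(Hw), pita, ZIPIC, Dref and M1BP bind DNA directly, whereas Cp190 and mod(mdg4) proteins carry BTB domains and are mostly brought to chromatin by such DNA-binding partners. Chromator, the product of Chro, marks the bands between condensed regions of polytene chromosomes. Dref activates replication and growth genes through the sequence TATCGATA, BEAF-32 recognises clusters of CGATA, and M1BP binds the promoter element known as Motif 1.

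Sequences are shown for 7 of the 10 IDR peaks at the listed genes, to show what lay under the summits. Those at BEAF-32 and pita are not shown, and held no match to the 6 sequences searched. Each line gives the summit of an IDR peak with 50 bp on either side, on the plus strand of dm6 with sequence from RefSeq, and capitals mark any match to TATCGATA (Dref), CGATA (BEAF-32), GGTCACAC (the core of Motif 1, for M1BP), AGNNGGCGC (CTCF), TGCATA (su(Hw)) or CANNTG (the E-box of basic helix-loop-helix proteins), on either strand.
Chro, chr3L:22878847-22878947: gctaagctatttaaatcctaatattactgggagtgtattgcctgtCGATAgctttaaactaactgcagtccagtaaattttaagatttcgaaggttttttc
Cp190, chr3R:15275316-15275416: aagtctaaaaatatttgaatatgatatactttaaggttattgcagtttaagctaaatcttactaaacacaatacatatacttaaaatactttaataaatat
mod(mdg4), in an intron, chr3R:21365403-21365503: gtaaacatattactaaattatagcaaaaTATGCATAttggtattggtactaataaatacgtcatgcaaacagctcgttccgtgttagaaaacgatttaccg
mod(mdg4), upstream, chr3R:21378707-21378807: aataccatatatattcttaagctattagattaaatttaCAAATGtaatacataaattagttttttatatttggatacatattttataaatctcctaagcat
M1BP, nearer M1BP, chr3R:8731814-8731914: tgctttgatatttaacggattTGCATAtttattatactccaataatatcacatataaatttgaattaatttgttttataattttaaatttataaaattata
M1BP, nearer CG8202, chr3R:8732019-8732119: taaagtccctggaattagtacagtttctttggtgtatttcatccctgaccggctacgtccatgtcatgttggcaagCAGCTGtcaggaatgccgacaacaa
Dref, chr2L:9967200-9967300: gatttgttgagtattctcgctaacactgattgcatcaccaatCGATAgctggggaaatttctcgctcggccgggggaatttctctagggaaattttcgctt
The windows of Cp190, of the upstream mod(mdg4) peak and of the first M1BP peak were rich in A and T, with a GC content of 18.8%, 17.8% and 14.9%. Those of Dref and of the second M1BP peak had 45.5% and 46.5%. Over the 10 IDR peaks at the listed genes the median was 31.2%, against 30.7% over all IDR peaks.

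The promoters of several listed genes hold the Dref sequence away from the IDR summits. Below are 300 bp from 250 bases before the first annotated start site, on the strand of the gene, with capitals for TATCGATA and for CGATA, whose letters are also part of TATCGATA.
Cp190, chr3R:15275192-15275491, minus strand: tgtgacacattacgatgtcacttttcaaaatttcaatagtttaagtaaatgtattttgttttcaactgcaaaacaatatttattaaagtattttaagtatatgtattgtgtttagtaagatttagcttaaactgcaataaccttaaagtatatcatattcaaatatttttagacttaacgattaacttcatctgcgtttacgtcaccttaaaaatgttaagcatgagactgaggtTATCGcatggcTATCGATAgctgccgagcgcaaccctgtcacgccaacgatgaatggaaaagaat
CTCF, chr3L:7356664-7356963, minus strand: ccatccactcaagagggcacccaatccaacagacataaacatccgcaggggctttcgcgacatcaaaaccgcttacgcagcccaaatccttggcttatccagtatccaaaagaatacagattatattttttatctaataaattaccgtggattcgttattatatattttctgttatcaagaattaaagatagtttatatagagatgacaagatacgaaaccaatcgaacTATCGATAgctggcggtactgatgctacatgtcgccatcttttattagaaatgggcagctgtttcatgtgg
mod(mdg4), chr3R:21377352-21377651, minus strand: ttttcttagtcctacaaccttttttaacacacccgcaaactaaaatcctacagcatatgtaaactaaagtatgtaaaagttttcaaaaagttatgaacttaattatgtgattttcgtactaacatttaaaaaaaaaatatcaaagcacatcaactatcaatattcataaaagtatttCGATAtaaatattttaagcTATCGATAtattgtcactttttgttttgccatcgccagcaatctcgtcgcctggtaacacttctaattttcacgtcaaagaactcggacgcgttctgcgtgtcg

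Of the 10 listed genes, 7 had an IDR peak in the gene body or within 2 kb. Among all protein-coding genes the same rule called 25.9% (3611 of 13968). The listed genes are longer, with a median gene length of 3635 bp against 2164 bp. A longer gene offers more room for a peak, but whether length bears on these shares was not tested. A second rule leaves out the gene body and asks for an IDR summit within 500 bp of any annotated start site of the gene. It called 5 of the 10 (BEAF-32, Cp190, Chro, Dref and M1BP) and 13.8% of all protein-coding genes (1926 of 13968). A gene with several start sites has more places to be called by it, and the shares were not matched for their number. No test was made of these shares, because the genes were chosen with results of these data known. In all, the 7 genes held 10 IDR peaks, whose signal values had a median of 141 against 106.3 for all IDR peaks. Of the 10, 6 lay above that median and 3 were in the strongest 10% of the list.

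**Figure D1:**
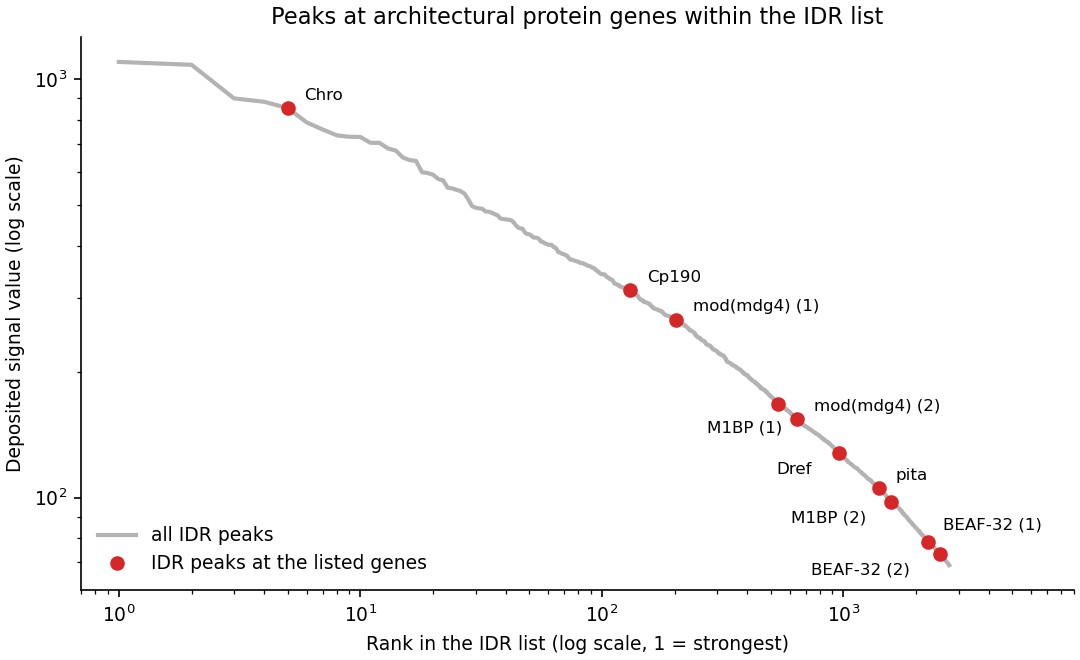
Deposited signal value (log scale) against rank (log scale) for all 2746 IDR peaks (grey line) and for the 10 peaks at the listed genes (red points, numbered by strength where a gene has more than 1). The red points run from Chro at 853.1 to the second BEAF-32 peak at 73.3, close to the lowest value of the list, 68.9.

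The strongest peak lay at the promoter of Chro (FBgn0044324, chromosome 3L from 22873702 to 22878984, minus strand). This peak, from 22878727 to 22879079, had a signal value of 853.1 and ranked 5 in the IDR list. The overlapping peak ranked 4 in replicate 1, with a signal value of 315.6, and 7 in replicate 3, with 386.9. Both replicates therefore placed it among their strongest peaks, and the summits of the replicates were 11 and 6 bp from the IDR summit. The summit fell in a transcribed but non-coding part of Chro, 87 bp downstream of the nearest of its 3 start sites and 192 bp upstream of the start site of Ssl1, a gene for a subunit of the general transcription factor TFIIH. The Chro and Ssl1 start sites are 105 bp apart on opposite strands.

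Cp190 (FBgn0000283, chromosome 3R from 15270432 to 15275241, minus strand), the gene of the BTB protein shared by many insulator complexes, had a promoter peak of the next highest signal value. The peak, from 15275285 to 15275524, was narrow at 240 bp against a median width of 404 bp, had a signal value of 313.0 and ranked 131. In replicate 1 the strongest overlapping peak had a signal value of 96.9 at rank 152, and in replicate 3 one of 180.7 at rank 94. Replicate 1 had a second overlapping peak at this promoter, with a signal value of 69.1 at rank 329, where replicate 3 had a single peak. The summit was intergenic, 125 bp upstream of Cp190 and 156 bp upstream of CG4338, which is transcribed the other way. Its summit window held no match to any of the 6 sequences searched. The strongest overlapping peaks of replicates 1 and 3 had summits 66 and 54 bp from the IDR summit, outside that window.

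Dref and M1BP, the genes of a pair of promoter-binding factors, also had peaks between divergent start sites. At Dref (FBgn0015664, chromosome 2L from 9964147 to 9967229, minus strand) the peak from 9967048 to 9967451 had a signal value of 127.9 and ranked 957. It had a signal value of 32.5 at rank 1477 in replicate 1 and of 70.9 at rank 818 in replicate 3, so it stood higher in replicate 3. The summit was 21 bp upstream of Dref and 63 bp upstream of RpL13, a ribosomal protein gene.

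At M1BP (FBgn0037621, chromosome 3R from 8729790 to 8731698, minus strand) 2 IDR peaks overlapped each other by 199 bp, as 210 of all IDR peaks (7.65%) did with another. The first, from 8731662 to 8732065, had a signal value of 167.7 at rank 538, and its summit was 166 bp upstream of M1BP. The second, from 8731867 to 8732270, had 97.8 at rank 1581, with a summit 371 bp upstream of M1BP and 22 bp upstream of CG8202. Replicate 3 listed both, at ranks 514 and 1304 with signal values of 88.5 and 56.5. Replicate 1 listed a single peak at rank 339, with a signal value of 67.8 and a summit between the other summits. The authors' pooled list also held 2 peaks there, at ranks 1282 and 2080 with signal values of 20.8 and 17.1. Their summits, 55 and 282 bp upstream of M1BP, were not at the places of the IDR summits. Of the 4 lists replicate 1 alone held a single peak there.

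BEAF-32 (FBgn0015602, chromosome 2R from 14770469 to 14772630, plus strand), the gene of the boundary element-associated factor, had the 2 weakest of the 10 peaks. The peak from 14771010 to 14771413 had a signal value of 78.4 at rank 2248, and the peak from 14770216 to 14770619 had 73.3 at rank 2519. Their summits were 89 and 51 bp upstream of different annotated start sites of the gene. The first had a signal value of 28.3 at rank 1846 in replicate 1 and of 35.1 at rank 2886 in replicate 3. The second had 25.4 at rank 2177 in replicate 1 and 30.7 at rank 3545 in replicate 3. In replicate 3 neither was among the 2746 strongest peaks. The antisense gene asRNA:CR42254 overlaps this promoter, with a start site 83 bp from the first summit.

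**Figure D2:**
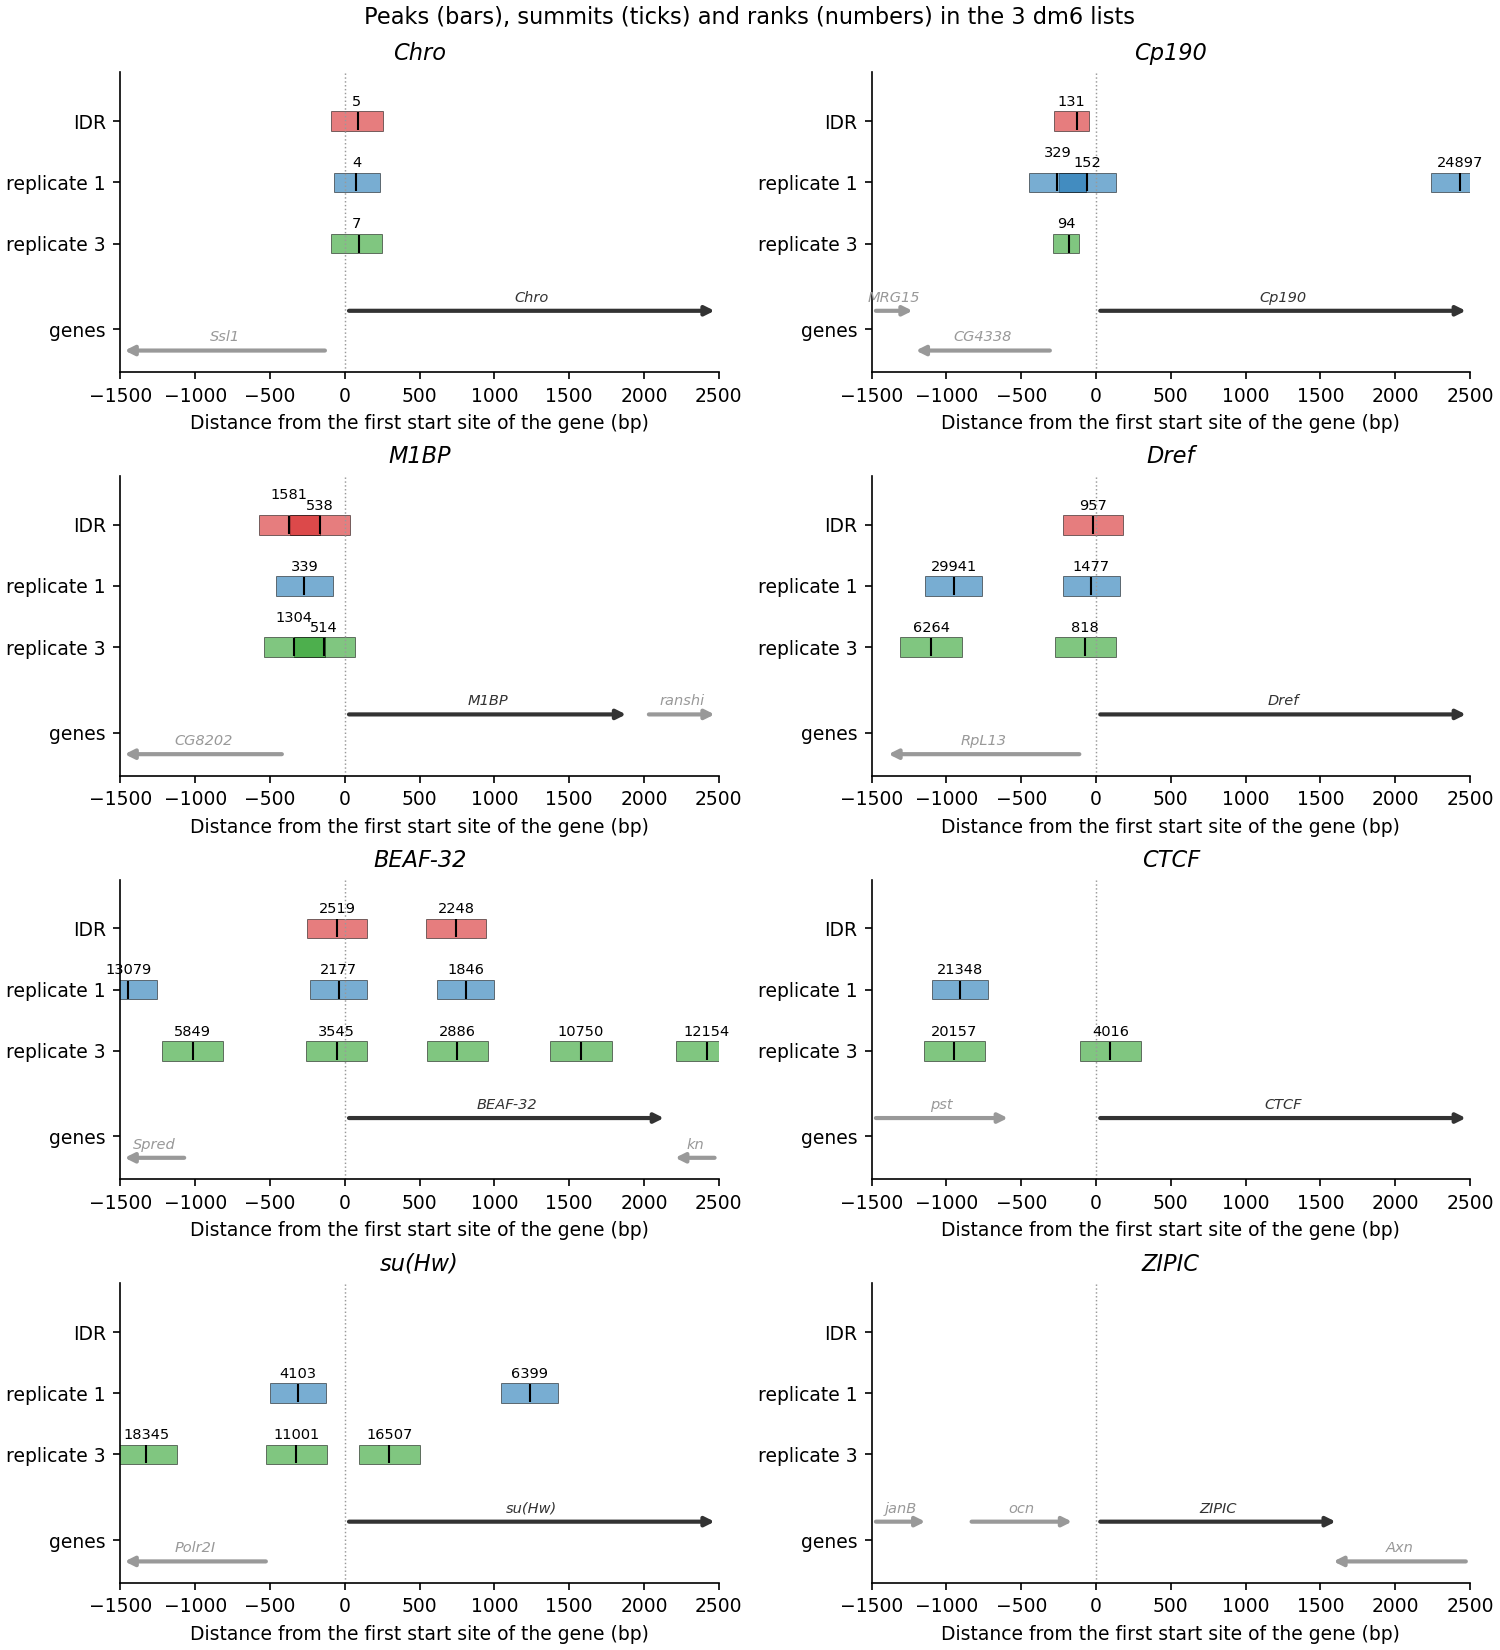
Peaks as bars, with summits as ticks and ranks as numbers, in the IDR list (red), replicate 1 (blue) and replicate 3 (green) around the first start site of 8 listed genes, with protein-coding genes as arrows pointing along transcription. The IDR peaks of Chro, Cp190, M1BP and Dref lie at or between divergent start sites, while CTCF, su(Hw) and ZIPIC have none here.

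mod(mdg4), a long gene whose many proteins share a first part that is joined by trans-splicing to alternative ends, had 2 IDR peaks and neither lay at its own start site. The gene (FBgn0002781, chromosome 3R from 21350846 to 21377401, minus strand) has 22 annotated transcripts and 1 annotated start site, and 23 pre-mod(mdg4) genes for the trans-spliced ends are annotated inside it, 14 on the minus and 9 on the plus strand. The stronger peak, from 21365251 to 21365654, had a signal value of 266.1 at rank 203. It had 99.8 at rank 135 in replicate 1 and 116.9 at rank 280 in replicate 3. Its summit was in an intron of mod(mdg4), 11948 bp downstream of the start site. It was also 35 bp downstream of the start of pre-mod(mdg4)-E, within a region from which 3 pre-mod(mdg4) genes start on the minus strand and 7 on the plus strand within 500 bp. These genes use 3 distinct start positions, 35, 156 and 163 bp from the summit, of 7 distinct positions over all pre-mod(mdg4) genes. The other 4 positions had no IDR summit within 500 bp. The second peak, from 21378555 to 21378958, had a signal value of 153.7 at rank 643 and lay 1356 bp upstream of mod(mdg4) but 220 bp upstream of tin, a homeobox gene of the heart and visceral mesoderm. It had 31.6 at rank 1528 in replicate 1 and 82.5 at rank 591 in replicate 3, the widest difference in rank among the 10 peaks, by a factor of 2.59. Weaker peaks of both replicates overlapped inside the gene 3838 and 3798 bp downstream of the start site, at ranks 3479 and 5248 with signal values of 19.1 and 24.1.

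**Figure D3:**
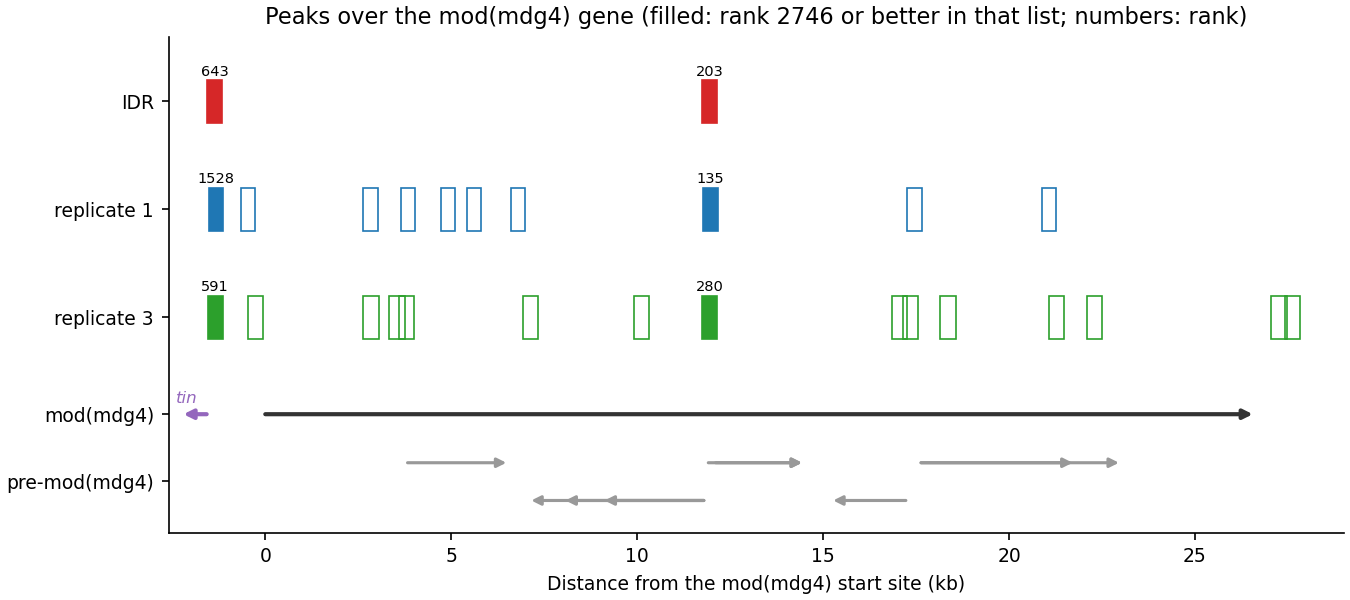
Peaks over mod(mdg4) in the IDR list and in each replicate against distance from its start site in kb, filled and numbered with their rank where that is 2746 or better and open otherwise. Arrows show mod(mdg4) (black), the pre-mod(mdg4) genes (grey) and tin (purple). The filled peaks of all 3 lists stand at the same places, inside the gene where pre-mod(mdg4) genes diverge and just upstream of tin.

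pita (FBgn0034878, chromosome 2R from 23548967 to 23554712, minus strand), the gene of a zinc-finger protein that recruits Cp190, had an IDR peak only beyond its 3' end. The peak, from 23547884 to 23548287, had a signal value of 105.2 at rank 1403 and was 680 bp from the gene body. Its signal values were 35.9 at rank 1250 in replicate 1 and 50.9 at rank 1594 in replicate 3. In the authors' pooled list the overlapping peak stood lower, with 12.5 at rank 5729. The summit lay 65 bp inside wmd, the neighbouring gene, and 3465 bp from the nearest start site of pita. Near the first start site of pita itself the strongest peaks ranked 5418 in replicate 1 and 9934 in replicate 3, with signal values of 15.1 and 17.4.

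CTCF, su(Hw) and ZIPIC, which encode zinc-finger insulator proteins, had no IDR peak. At the promoter of CTCF (FBgn0035769, chromosome 3L from 7353578 to 7356713, minus strand) replicate 3 listed a peak with a signal value of 28.5 at rank 4016, its summit 96 bp downstream of the start site. No peak of replicate 1 overlapped it. Of the 2254 peaks ranked 2747 to 5000 in replicate 3, 413 (18.3%) likewise had no overlapping peak in replicate 1. The authors' pooled list held a peak at the CTCF promoter with a signal value of 14.7 at rank 3218, its summit 182 bp downstream of the start site. The closest IDR peak outside the 2 kb limit was 3491 bp from the CTCF gene body, with a signal value of 92.0.

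Between su(Hw) (FBgn0003567, chromosome 3R from 14304455 to 14308589, minus strand) and Polr2I, an RNA polymerase II subunit gene whose start site is 500 bp away, both replicates listed a peak. It had a signal value of 17.3 at rank 4103 in replicate 1 and 16.5 at rank 11001 in replicate 3, so the replicates placed it far apart. The nearest IDR peak was 15455 bp from the su(Hw) gene body. Around ZIPIC (FBgn0039740, chromosome 3R from 30035240 to 30036870, minus strand) each replicate listed a single peak, with a signal value of 8.6 at rank 21375 in replicate 1 and 10.2 at rank 28385 in replicate 3. They lay over Axn, 3144 and 3302 bp from the ZIPIC start site, and the nearest IDR peak was 6230 bp from the ZIPIC gene body.

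Across replicates, all 10 IDR peaks at the listed genes were found in both lists, as the selection by IDR favours and as 2741 of all 2746 IDR peaks were. Of the 10, 8 ranked 2746 or better in each, a count for which the share over all IDR peaks was not computed. The larger rank was a median of 1.62 times the smaller one, against 1.48 times over the 2741 IDR peaks in both lists, and 7 of the 10 stood higher in replicate 1, against 47.0% of those 2741. The M1BP peaks enter both values with the same pair of replicate ranks. By the 2746 strongest peaks of replicate 1 alone, 7 of the 10 genes had a peak in the gene body or within 2 kb, against 26.0% of protein-coding genes. By those of replicate 3 alone 6 did, without BEAF-32, against 25.2%. With all 30000 peaks every listed gene had a peak in each replicate, where 83.4% and 80.8% of all protein-coding genes did, so that the full lists separate few genes. Of the 31 replicate 1 peaks at the listed genes 24 (77.4%) overlapped a replicate 3 peak, against 44.8% of all replicate 1 peaks. In the other direction 25 of 44 (56.8%) did, against 46.8%. Both counts take in the replicate peaks under the 10 IDR peaks, which were selected for agreement between replicates. The shares were not matched by rank, so they do not show that peaks at these genes repeat better.

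**Figure D4:**
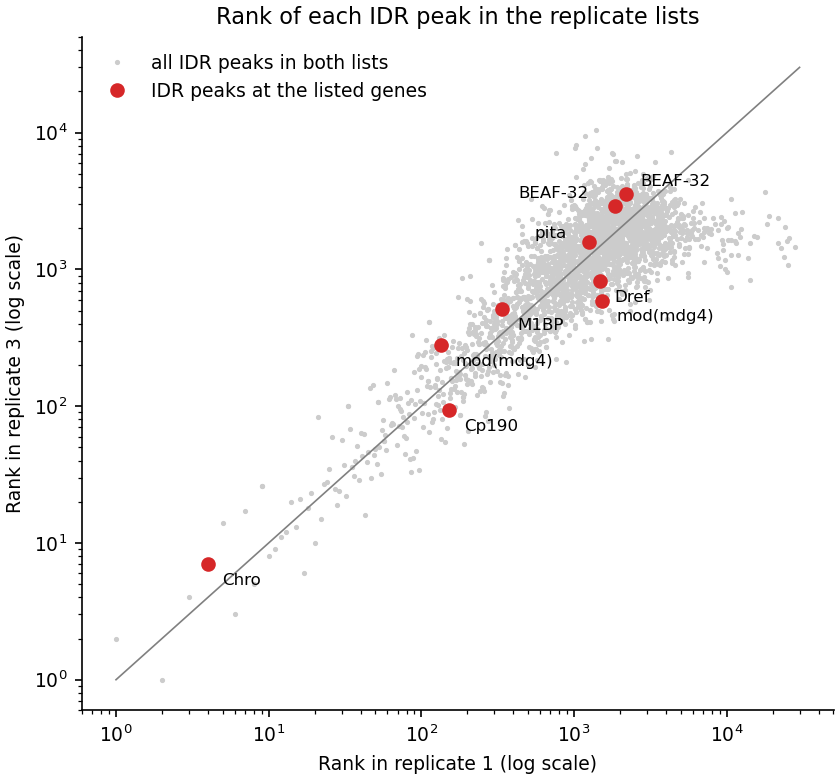
Rank in replicate 1 (horizontal axis) and in replicate 3 (vertical axis), both on log scales and rising away from the origin, of the strongest peak overlapping each IDR peak, for all IDR peaks (grey) and those at the listed genes (red); the 2 M1BP peaks share a point, and the line marks equal ranks. Chro stands at ranks 4 and 7, and the BEAF-32 points lie above the line, with larger rank numbers in replicate 3.

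The listed genes also differ in their arrangement. A gene was called head-to-head where a protein-coding start site on the other strand lay upstream within 500 bp. Of the 5 listed genes so arranged (Chro, Cp190, Dref, M1BP and su(Hw)), 4 had an IDR summit within 500 bp of a start site, and of the other 5 BEAF-32 alone did. Over all protein-coding genes the shares were 29.5% of 3815 head-to-head genes and 7.90% of the remaining 10153. With a shared promoter, a peak cannot be given to either gene of the pair. Of the 10 summits, 8 were within 500 bp of a start site of another protein-coding gene and 4 were closer to that gene than to the listed one. Over all 4804 pairs of a protein-coding gene and an IDR peak in its body or within 2 kb, these shares were 53.5% and 49.3%. The 8 and the 4 both take in the intronic mod(mdg4) summit. The other gene there is pre-mod(mdg4)-E, annotated for a trans-spliced end of mod(mdg4) itself and so not a separate neighbour. All 10 lay within 500 bp of some annotated start site, against 58.9% of the 2502 IDR peaks in the body or within 2 kb of a protein-coding gene, and 0 were in a coding exon, against 0.280% of those peaks.

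**Figure D5:**
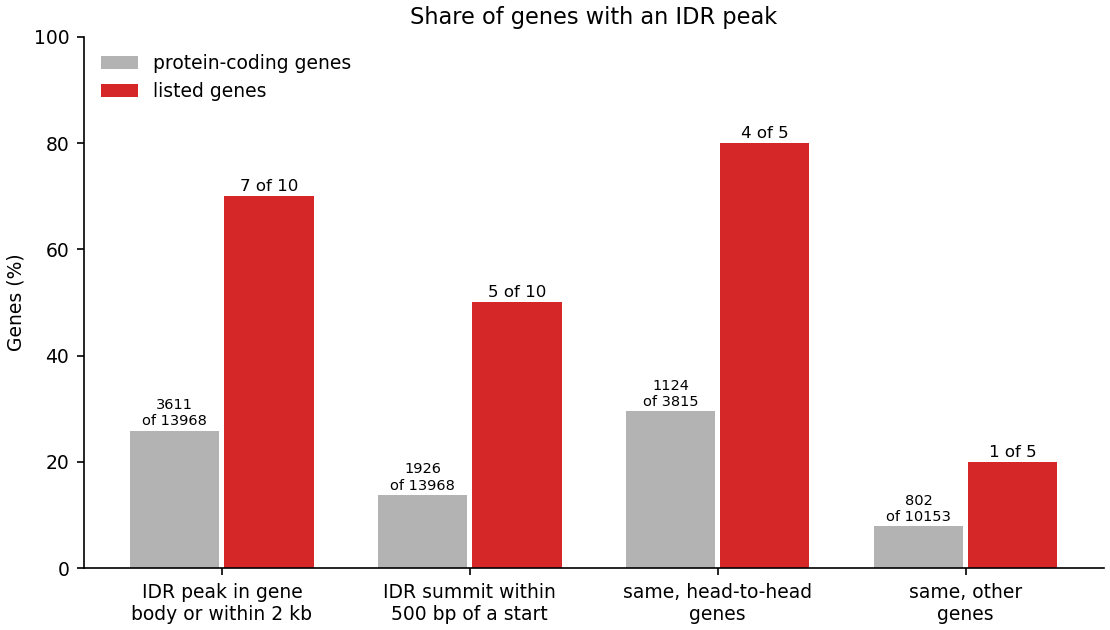
Percentage of protein-coding genes (grey) and of listed genes (red) with an IDR peak in the gene body or within 2 kb, with an IDR summit within 500 bp of a start site, and the latter for head-to-head and other genes; counts stand above the bars. The red bars rest on 5 or 10 genes each, and the share of head-to-head genes is the higher one in both colours.

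The sites of 5 of the listed proteins were sought under the summits. Among the 10 summit windows, CGATA was found in 2 (Chro and Dref), against 13.9% of all IDR windows and 20.3% of windows of the same length from 150 to 50 bp before protein-coding start sites. Each of the 2 windows held a single copy, whereas BEAF-32 recognises clusters. TGCATA was in 2 (the intronic mod(mdg4) peak and the first M1BP peak), against 9.65% and 5.89%. TATCGATA, GGTCACAC and AGNNGGCGC were in 0 of the 10, against 1.57%, 0.583% and 1.53% of all IDR windows and 2.62%, 1.39% and 1.05% of promoter windows. In all, 4 of the 10 windows held at least 1 of these 5 sites, against 24.1% of all IDR windows and 26.8% of promoter windows. The E-box CANNTG was in 2 windows (the upstream mod(mdg4) peak and the second M1BP peak), against 32.7% and 36.6%. With 10 windows such shares are coarse, and a match to these letters is a description rather than a bound site.

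Over the 300 bp promoters TATCGATA was present at 5 of the 10 listed genes, BEAF-32, CTCF, Cp190, mod(mdg4) and pita, and at 9.36% of all 13968 protein-coding promoters. CGATA was present at 7, or at 4 once copies inside TATCGATA were set aside, against 47.3% and 44.7% of all promoters. The Dref sequence was centred 1 bp upstream of the Cp190 start site, 18 bp upstream of that of CTCF, 51 bp upstream of that of mod(mdg4), 65 bp upstream of that of pita and 206 bp upstream of that of BEAF-32. At the Cp190 and BEAF-32 promoters it was 124 and 155 bp from the nearest IDR summit. For Cp190, the summit of the strongest overlapping peak was 59 bp upstream of the start site in replicate 1, so nearer the sequence. In replicate 3 that summit was 179 bp upstream. Of the 5 genes with the sequence 2 had an IDR summit within 500 bp of a start site, and of the 5 without it 3 did. The same shares over all promoters were not computed, so no relation of the sequence to a summit is read from these counts. The Motif 1 core GGTCACAC was present at 2 of the 10, su(Hw) and ZIPIC, against 7.69% of all promoters. Neither gene had an IDR peak, where 25.9% of all protein-coding genes had one in the gene body or within 2 kb. The share among all genes with this core was not computed, so no relation is read from these 2 genes. Chro, with the strongest peak, held none of the 6 sequences in its 300 bp promoter before its first start site and 50 bp after it, since the CGATA under its summit lies further downstream. The other shares over 300 bp were 2 of the 10 listed genes for TGCATA (15.4% of all promoters), 7 for CANNTG (77.2%) and 0 for AGNNGGCGC (2.81%).

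The same rules were applied to other genes of chromosome architecture. These were 30 genes for further insulator proteins, cohesin and condensin subunits, promoter factors and other chromatin proteins such as Caf1-55, JIL-1 and fs(1)h. Of the 30, 11 (36.7%) had an IDR peak in the gene body or within 2 kb, against 25.9% of all protein-coding genes. An IDR summit within 500 bp of a start site was found for 7 (23.3%), against 13.8%. The highest signal value, 728.5 at rank 9, was found near Caf1-55, which encodes a histone-binding subunit of several chromatin complexes, but its summit lay 3938 bp from the Caf1-55 start site and 106 bp from that of Art3. Trl, the gene of the GAGA factor, had 3 peaks, the best with 482.4 at rank 34 and 1523 bp downstream of its nearest start site. JIL-1, a histone kinase gene, had 4 peaks, the best with 291.9 at rank 155 and 7059 bp downstream of the nearest start site. SA1, a cohesin subunit gene, had 190.7 at rank 419, 152 bp upstream of its start site and 62 bp from that of Gas41. fs(1)h, the gene of a bromodomain protein, had 117.9 at rank 1123. The remaining 19, among them the genes of the insulator proteins Ibf1, Ibf2 and dwg and of the cohesin subunits vtd, SMC1 and SMC3, had no IDR peak by this rule.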

How the data were processed

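Per the deposited lists of files, the peak list of each replicate derives from its alignment and a control not analysed here, and the IDR list derives from the replicate and pooled peak lists. The values used are the authors' deposited signal of each peak and its summit; which caller and aligner made them, and at what depth, is not given in the sources used here. The 4 dm6 lists were used; the dm3 lists were not used here. Gene models were those of Ensembl release 115 (BDGP annotation 6.54), and bases were read from RefSeq's genome of that assembly; all peaks and genes lay within its chromosome lengths. Overlap meant at least 1 bp. Coordinates are 1-based. Calculations used Python 3.11.15 and numpy 2.4.6, with plots by matplotlib 3.10.9, and the look-ups and motif search were tested on simulated data. Where an IDR peak overlapped several peaks of a replicate, the strongest was taken. The members and lists were chosen with earlier results of these data known, so no significance test was run. Named genes are the 10 listed, the gene with the nearest other start site for each peak, and the 5 other architectural genes of highest signal value; further genes named were chosen after their values were seen. The grouping into head-to-head genes, the 300 bp promoters, the overlap of the full replicate lists and the place of summits over all protein-coding genes were also chosen after seeing the data. With 2 libraries of 1 condition, no likeness of pattern between genes was computed. Both libraries carry replicate numbers and separate biosamples in the labels.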

Additional observations from a re-analysis of the deposited data

How the results depend on the processing

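In all, 60 alternative values of 5 counts were computed, and 48 stayed within 1.5 times the reported value. Without replicate 3 and without replicate 1, taking the 2746 strongest peaks of the other, the listed genes with a peak in the gene body or within 2 kb numbered 7 and 6, those with a promoter summit 5 and 4, the peaks 10 and 8, their windows with a site 4 and 3, and the other architectural genes 11 and 12; BEAF-32 was the gene lost. With the strongest 1000 peaks of replicate 1, 4 listed genes had a peak, 3 had a promoter summit and the peaks numbered 5. With those of replicate 3 the peaks numbered 6. The shares over all protein-coding genes with 1000 peaks were not computed. The stronger 50% of the IDR list left 6 peaks, and so did counting within 0 bp of the gene body. Of the other architectural genes, reported as 11, 7 had a peak with the pooled list, with the stronger 50% of the IDR list, with the strongest 1000 peaks of replicate 1 and within 0 bp of the gene body, 5 with the strongest 1000 peaks of replicate 3 and 18 with its strongest 5000. These settings use fewer or more peaks or less sequence by construction, except the pooled list, for which the cause was not tested; 0 of the 2746 IDR peaks are rows of that list. The window count stayed between 3 and 5. No paired analysis was possible because there is 1 condition and no test. The unknown depth leaves the error of each signal value unknown.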
